A study of Mus musculus with 92 samples.

Results

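ATF4 and 9 genes of the integrated stress response were followed in the livers of female HET3 mice, a genetically heterogeneous stock, on 3 diets at 2 ages. The 10 members (Atf4, Ddit3, Asns, Chac1, Trib3, Atf5, Atf3, Nupr1, Sesn2 and Ddit4) were taken by symbol from 17275 gene lines whose counts could be used. The list was chosen with earlier results of these data known. All 10 were among the 12617 genes that passed a filter on low counts. The 6 female groups were 24-month mice on Low Isoleucine (8 libraries), Low Amino Acid (7) or Control diet (8), and 6-month mice on Low Isoleucine (7 used of 8), Low Amino Acid (8) or Control diet (8). The Low Amino Acid diet is the one the series calls restriction of total amino acids, and Low Isoleucine lowers isoleucine, an essential branched-chain amino acid, alone. All mice were fasted for 16 h before the liver was taken, so the controls carry a fast as well. By the labels the diets began at 6 months of age in mice killed at 24 months and at 9 weeks in mice killed at 6 months, while the series text gives 13 weeks on diet, so age cannot be told apart from starting age and time on diet.

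The integrated stress response begins when one of a group of kinases phosphorylates the translation factor eIF2. GCN2 is the kinase that responds to uncharged transfer RNA when an amino acid is short, and PERK responds to unfolded protein in the endoplasmic reticulum. Phosphorylated eIF2 slows protein synthesis in general but favours translation of the Atf4 messenger RNA. ATF4 then switches on genes for amino acid synthesis, uptake and transfer RNA charging, together with regulators that end or redirect the response. Because much of the control of ATF4 acts on translation, the level of its messenger RNA is an incomplete readout of the protein.

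The regulators among the members are transcription factors: Atf4 itself (chr15:80255184-80257541), Ddit3, which encodes CHOP (chr10:127290774-127296288), Atf5 (chr7:44812256-44816658) and Atf3 (chr1:191170296-191218039). Nupr1 (chr7:126623249-126630861) encodes a small stress-induced chromatin protein. The effectors are Asns, the enzyme that makes asparagine (chr6:7675169-7693254), Chac1, an enzyme that degrades glutathione (chr2:119351229-119354381), and Trib3, a pseudokinase that restrains ATF4 and CHOP (chr2:152337422-152344032). Sesn2 (chr4:132492032-132510501) and Ddit4 (chr10:59949669-59951834) encode inhibitors of the growth kinase mTORC1. Positions are those of GENCODE M21 on GRCm38. Per kilobase of exon, the median level over 46 libraries was highest for Atf5 (59.5 CPM per kb, CPM being counts scaled to a library total of 1000000) and Atf4 (27.7 CPM per kb). It was 4.87 for Ddit3, 3.93 for Sesn2 and 3.48 for Trib3, and under 1 for Ddit4 (0.943), Chac1 (0.915), Atf3 (0.869), Nupr1 (0.636) and Asns (0.128). Asns was therefore measured on few reads, a median of 7 per library. The spread between libraries also differed: the highest library stood 2.95-fold above the lowest for Sesn2 and 3.0-fold for Atf4, but 91.8-fold for Chac1, 270-fold for Nupr1 and 753-fold for Asns.

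ATF4 binds with C/EBP proteins at a composite element whose core was searched as TGATGNAA on both strands of RefSeq promoter windows (GRCm38.p6, 250 bases before to 50 after the start), and the matches are shown because they mark which members carry that core close to the RefSeq start. All 10 members had a window. The core was in the windows of 5 members and of 4.51% of the 27025 genes with windows. Counted by window it was in 3.97% of all 32851 windows. Another motif, the CCAAT box, was in the windows of 7 members and in 37.4% of all windows, a share by window rather than by gene. The stretches, 5′ to 3′ on the strand of the gene with the core in capitals, were as follows.
Atf3: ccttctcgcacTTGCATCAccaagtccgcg
Chac1: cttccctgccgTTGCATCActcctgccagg
Nupr1: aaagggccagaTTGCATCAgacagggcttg
Trib3: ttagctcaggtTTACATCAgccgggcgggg
Asns: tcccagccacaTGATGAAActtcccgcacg

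Atf3 (chr1:191183425-191183454, minus strand), Chac1 (chr2:119351038-119351067, plus strand) and Nupr1 (chr7:126625562-126625591, minus strand) hold the same 8 bases. The core began 110 bases before the RefSeq start in Atf3 and Nupr1 and 193 bases before it in Chac1. In Asns (chr6:7693214-7693243, minus strand) it began 23 bases before the start, and in Trib3 (chr2:152344028-152344057, minus strand) 14 bases after it. The letters were not in the windows of Atf4, Ddit3, Atf5, Sesn2 or Ddit4. A match is a run of letters, and binding was not measured here.

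The female libraries held 7.82 to 27.6 M counts (M, 1000000) over the usable lines. A library of the 6-month Low Isoleucine group, replicate 3, was left out for a Kdm5d level of 50.8 CPM, a Y-linked gene. Hepatocyte markers overlapped between all groups. The 24-month controls varied in genes of inflammation: the summed level of 10 neutrophil genes ran from 1.74 to 122 CPM on Low Isoleucine, 2.44 to 413 on Low Amino Acid and 6.08 to 714 in controls at 24 months, and reached at most 6.97 CPM in the 6-month libraries used. Fewer cells of a type and less RNA per cell cannot be told apart in such bulk samples. The libraries are listed as separate samples, and p-values measure the spread between them. Some titles within a group share a number and differ only in a final letter, and the fit took these libraries as independent.

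At 24 months 3 members were lower on Low Isoleucine and 1 on Low Amino Acid, and none of the 10 rose in any of the 4 comparisons of a restricted diet with Control. Trib3 lay above the control median in every restricted liver of that age without passing the test. In Low Isoleucine livers 3 of 10 members fell against Control and 0 rose, beside 3.79% of all 12617 genes that fell and 2.69% that rose (edgeR quasi-likelihood test, Benjamini-Hochberg adjusted p under 0.05). Those 3 were Atf4, Asns and Chac1, and without control replicate 1 the count was 1, Chac1. The median log2 fold change was -0.30 over the members and -0.02 over all genes. In Low Amino Acid livers 1 of 10 fell, Atf4, beside 0.293% of all genes, and 0 rose beside 0.452%, with medians of -0.52 for the members and -0.03 for all genes. Both comparisons use the same 8 control livers.

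**Figure D1:**
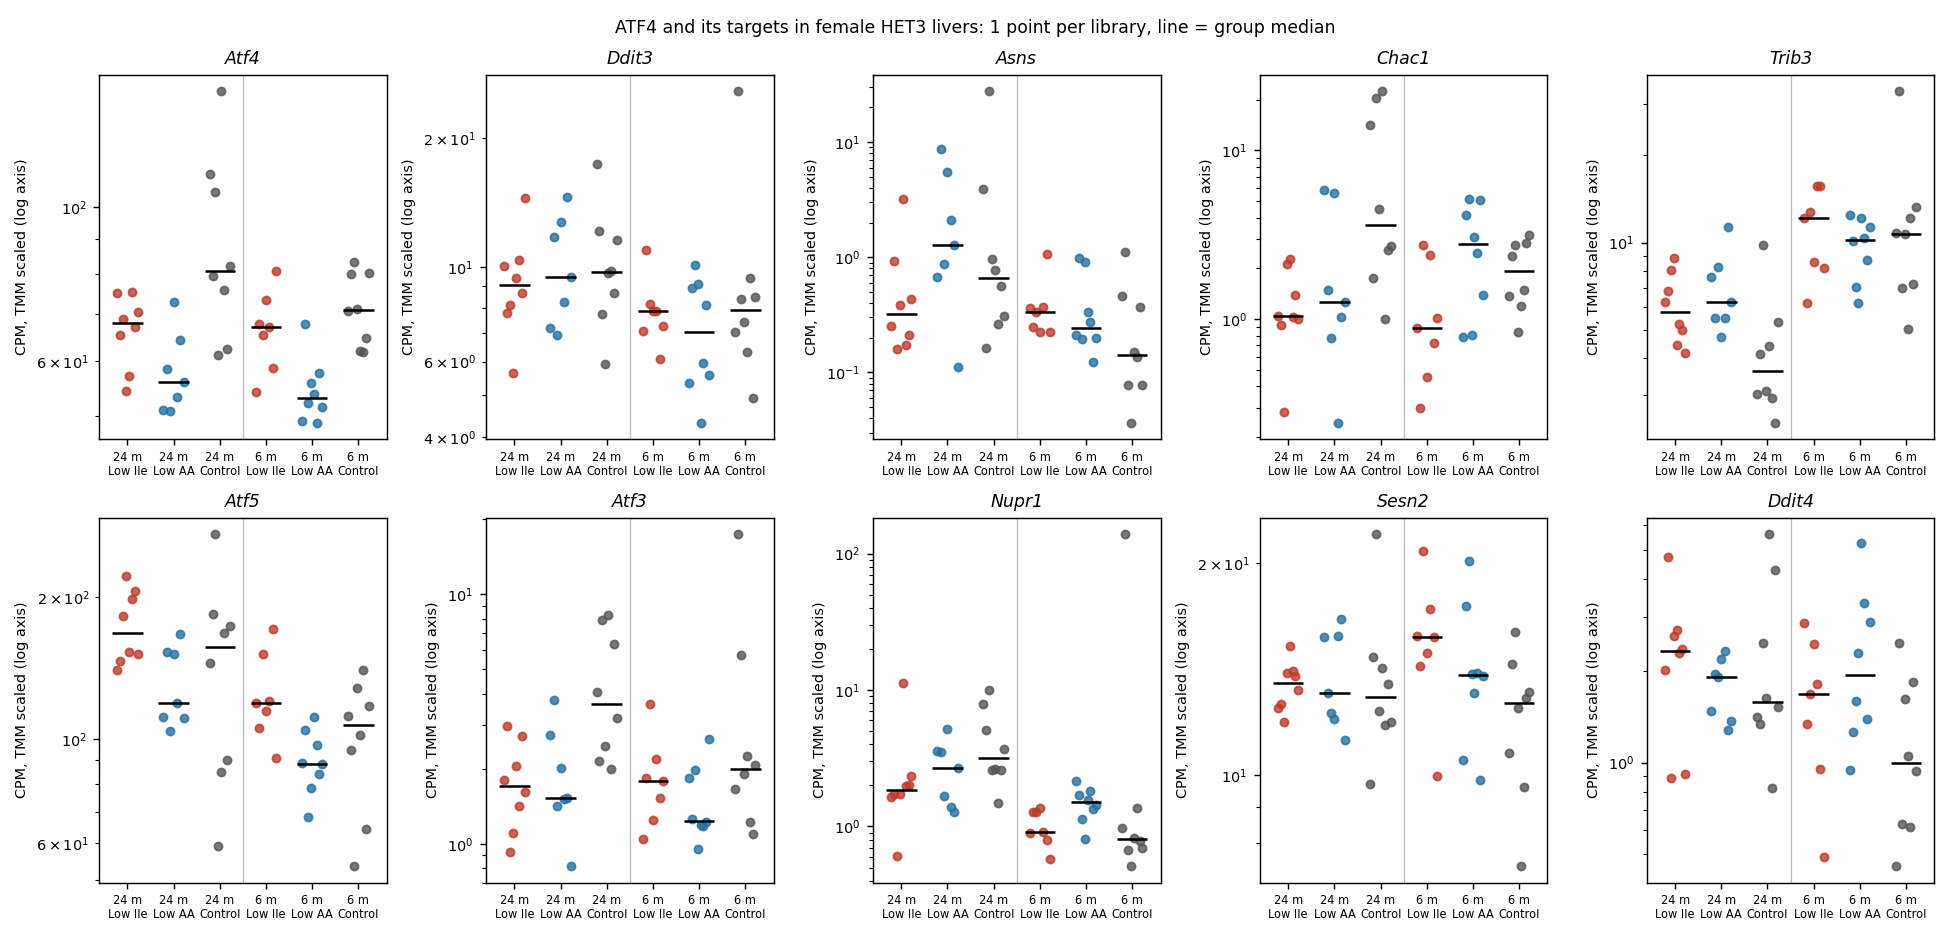
Level of each member in every female library, in TMM-scaled CPM on a log axis, by group, with a line at the group median. The 24-month controls spread upward in Atf4, Chac1 and Atf3. The Trib3 median is lower at 24 than at 6 months on each diet, with overlap between the ages. The single 6-month control at 138 CPM stands apart in Nupr1.

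Atf4, the factor that gives the response its name, had a lowest, median and highest level of 54.3, 68.1 and 75.4 CPM in 24-month Low Isoleucine livers, 50.8, 56.0 and 72.9 CPM in Low Amino Acid livers and 61.3, 80.9 and 147 CPM in Control livers. All 8 Low Isoleucine and all 7 Low Amino Acid livers lay below the control median, and the groups overlapped. The log2 fold change was -0.44 (SE 0.12, adjusted p = 0.021) for Low Isoleucine and -0.64 (SE 0.13, adjusted p = 0.017) for Low Amino Acid. With only the compared groups fitted neither passed (adjusted p = 0.20 and 0.28), where 40 of 12103 and 4 of 12159 genes were called. The size of the control mean rested on replicates 1 and 5, at 112 and 147 CPM. Without these libraries the log2 fold changes were -0.23 (adjusted p = 0.19) for Low Isoleucine and -0.42 (adjusted p = 0.088) for Low Amino Acid. Leaving out either alone also ended the Low Isoleucine call, with adjusted p = 0.057 without replicate 1 and 0.064 without replicate 5. The Low Amino Acid call held with each of the 46 libraries left out in turn (-0.71 to -0.51, adjusted p = 0.0035 to 0.040).

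Chac1, the glutathione-degrading ATF4 target, varied more than 10-fold among the controls. Its lowest, median and highest levels were 0.282, 1.04 and 2.27 CPM on Low Isoleucine, 0.244, 1.26 and 5.80 CPM on Low Amino Acid and 1.0, 3.60 and 22.4 CPM on Control diet. Control replicates 1, 3 and 5 stood at 14.1, 20.4 and 22.4 CPM, above every restricted liver of that age, while the other control livers overlapped them. The log2 fold change on Low Isoleucine was -2.82 (SE 0.60, adjusted p = 0.0032), and it stayed between -2.99 and -2.45 and past the threshold with each of the 46 libraries left out in turn. Without control replicates 1 and 5 together it was -2.16 (adjusted p = 0.023). It missed the threshold under limma voom with quality weights (adjusted p = 0.060) and when only the compared groups were fitted (adjusted p = 0.059), settings under which no member passed for Low Isoleucine. Over all genes those settings called 565 of 12617 and 40 of 12103, so the loss in the compared groups alone was not particular to the members. On Low Amino Acid the log2 fold change of Chac1 was -1.91 (SE 0.59, adjusted p = 0.093) and did not pass.

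Asns passed for Low Isoleucine through 1 control. The lowest, median and highest levels were 0.161, 0.319 and 3.18 CPM on Low Isoleucine, 0.111, 1.28 and 8.64 CPM on Low Amino Acid and 0.163, 0.663 and 27.6 CPM on Control diet. Control replicate 3 held the 27.6 CPM and the next control 3.91 CPM. The log2 fold change of -2.80 (SE 0.85, adjusted p = 0.038) became -0.67 (adjusted p = 0.62) without that library, and the call was lost with 8 of the 46 libraries left out in turn. Low Amino Acid replicates 2 and 4, at 8.64 and 5.47 CPM, and Low Isoleucine replicate 5, at 3.18 CPM, were the highest of their groups for Asns. The same libraries were also the highest of their groups for the neutrophil genes, at 413, 266 and 122 CPM summed, and the part of this in the Asns values was not tested.

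Atf3, a stress-induced repressor, was lower on both diets without passing: its log2 fold change was -1.32 (SE 0.43, adjusted p = 0.052) for Low Isoleucine and -1.21 (SE 0.44, adjusted p = 0.16) for Low Amino Acid. It passed under DESeq2 for Low Isoleucine (adjusted p = 0.024). Its lowest, median and highest levels were 0.928, 1.71 and 2.97 CPM on Low Isoleucine, 0.816, 1.53 and 3.76 CPM on Low Amino Acid and 2.0, 3.63 and 8.30 CPM on Control diet. Here 5 of 8 Low Isoleucine and 4 of 7 Low Amino Acid livers lay below the lowest control.

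Trib3, the feedback inhibitor, ran the other way. Its lowest, median and highest levels were 4.16, 5.75 and 8.87 CPM on Low Isoleucine, 4.73, 6.27 and 11.3 CPM on Low Amino Acid and 2.40, 3.62 and 9.78 CPM on Control diet. Every restricted liver lay above the control median, 8 of 8 and 7 of 7, although the groups overlapped. The log2 fold changes of 0.48 (SE 0.28, adjusted p = 0.32) and 0.67 (SE 0.29, adjusted p = 0.23) did not pass. Control replicate 3, at 9.78 CPM, was again the highest. Without it alone the values were 0.75 for Low Isoleucine and 0.96 for Low Amino Acid. Neither diet passed with any of the 46 libraries left out in turn (lowest adjusted p = 0.091 and 0.071). Leaving out 6-month control replicate 2 as well gave 0.76 (adjusted p = 0.035) for Low Isoleucine and 0.96 (adjusted p = 0.037) for Low Amino Acid. That library is in neither comparison and enters only the shared estimate of the spread. This joint alternative was chosen after the values were seen.

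Ddit3, Atf5, Nupr1, Sesn2 and Ddit4 gave no call for either diet at 24 months. Ddit3 differed from Control by -0.15 (SE 0.24) on Low Isoleucine and -0.04 (SE 0.25) on Low Amino Acid, and Sesn2 by -0.04 (SE 0.15) and 0.01 (SE 0.15), on the log2 scale. Sesn2 was the most even member, at 11.9 to 15.2 CPM on Low Isoleucine, 11.2 to 16.7 CPM on Low Amino Acid and 9.70 to 22.0 CPM on Control diet. Between the restricted diets themselves 0 of 10 members passed at 24 months by edgeR, beside 1.25% of all genes called. An unadjusted p under 0.05 was reached by 1 member, beside 1999 of 12617 genes, and DESeq2 called 0, beside 329. The lowest of these log2 differences, Low Isoleucine over Low Amino Acid, was that of Asns at -2.14 (SE 0.86, adjusted p = 0.20).

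**Figure D2:**
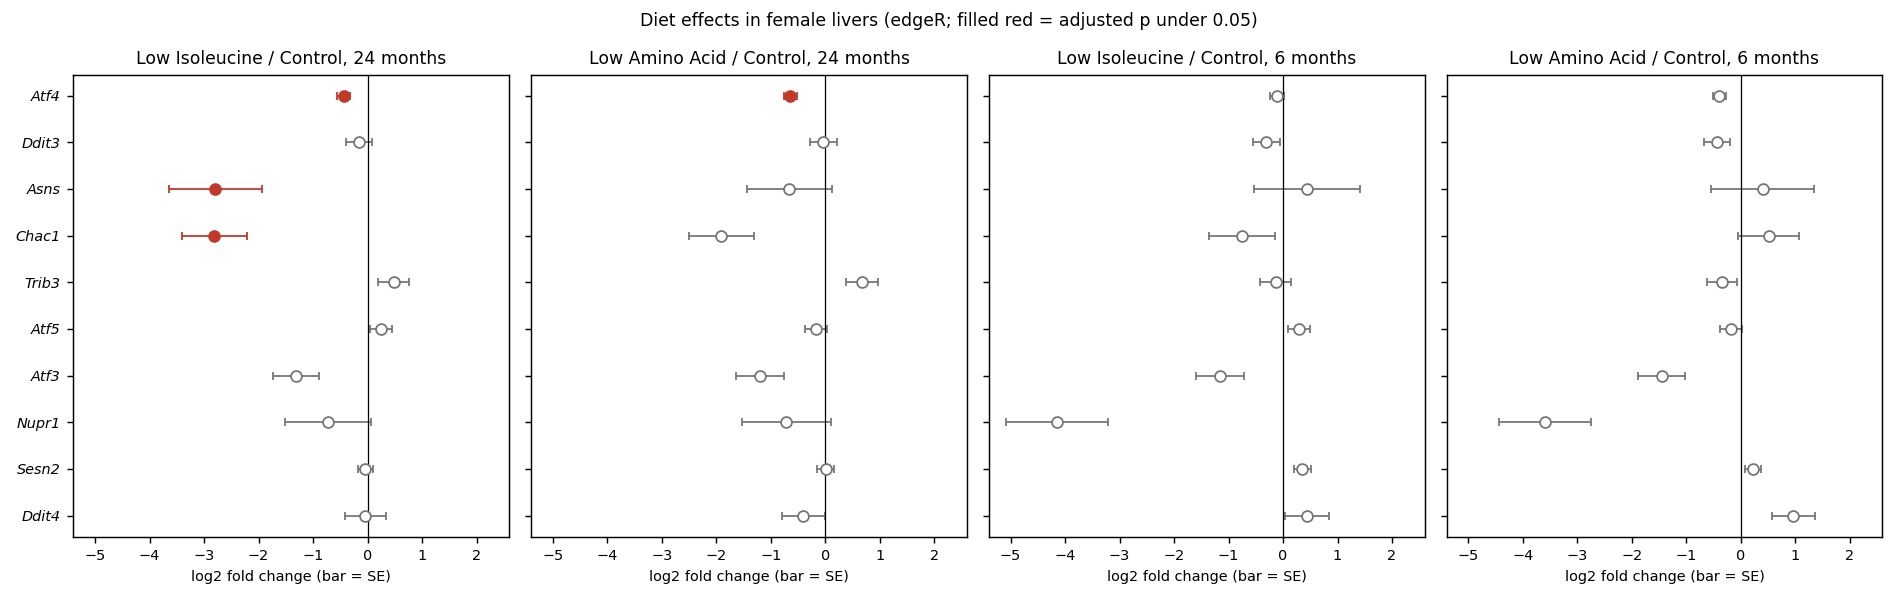
Fitted log2 fold change of each member, with its SE as the bar, for each restricted diet over Control at 24 and at 6 months. Filled points passed an adjusted p of 0.05: 3 members for Low Isoleucine and 1 for Low Amino Acid at 24 months, 0 at 6 months.

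The wider pathway was described by lists, whose counts stand beside 3.79% of all genes lower and 2.69% higher on Low Isoleucine, and 0.293% lower and 0.452% higher on Low Amino Acid. Of 12 measured transfer RNA genes, aminoacyl-tRNA synthetases together with the nuclear exporter Xpot, 5 fell on Low Isoleucine and 0 rose (Nars -0.49, Wars -0.48, Yars -0.44, Mars -0.31 and Aars -0.30 on the log2 scale), and 3 fell on Low Amino Acid (Mars -0.55, Yars -0.55 and Nars -0.46). The list medians were -0.27 and -0.32. Among 10 eIF2 kinases and regulators, Eif2ak3, which encodes PERK, fell by 0.53 on Low Isoleucine, and 0 passed on Low Amino Acid. Of 9 partner and related bZIP factors measured, which include the members Ddit3 and Atf3, Cebpg fell by 0.38 on Low Isoleucine. Of 8 amino acid transporters 1 fell on Low Isoleucine, Slc1a4 (-1.37), and of 7 serine and one-carbon enzymes 0 passed on either diet. The 18 further targets were split: Vldlr, a lipoprotein receptor (1.66), and Cth, which makes cysteine (0.86), rose on Low Isoleucine, while Gadd45a (-1.27) and Eif4ebp1 (-0.57) fell. Of 10 genes of the parallel XBP1 and ATF6 arm of endoplasmic reticulum stress 1 fell on Low Isoleucine, Xbp1 (-0.56). In the same comparison 8 of 10 acute-phase genes fell, with a median of -1.55, and their summed level was 20860 to 26460 CPM on Low Isoleucine, against 18860 to 167700 CPM on Control diet. Of 10 neutrophil genes 3 fell. On Low Amino Acid 0 genes of the bZIP, transporter, further target, XBP1 and ATF6, acute-phase and neutrophil lists passed by edgeR, with 0 to 6 of a list at an unadjusted p under 0.05 and 0 or 1 by DESeq2. Over all 12617 genes, 2137 had an unadjusted p under 0.05 there and DESeq2 called 301. The part of these lists in the members' values was not tested beyond the left-out libraries given above.

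At 6 months the restricted diets gave no call in any member. For Low Isoleucine 0 of 10 passed by edgeR, beside 0.0238% of all genes called. An unadjusted p under 0.05 was reached by 3 members, beside 1271 of 12617 genes, and DESeq2 called 0, beside 38. For Low Amino Acid 0 of 10 passed by edgeR, beside 0% of all genes called. An unadjusted p under 0.05 was reached by 4 members, beside 1023 of 12617 genes, and DESeq2 called 0, beside 8. The members' medians were -0.12 and -0.26, against -0.01 and 0.00 for all genes.

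Atf4 overlapped little between Low Amino Acid and Control livers. It lay at 54.1, 67.2 and 80.8 CPM (lowest, median, highest) on Low Isoleucine, 48.9, 53.0 and 67.9 CPM on Low Amino Acid and 61.8, 71.1 and 83.4 CPM on Control diet. Of the 8 Low Amino Acid livers 7 lay below the lowest control, and replicate 2 lay inside the control range. The log2 fold change was -0.39 (SE 0.12, adjusted p = 0.39) for Low Amino Acid, ranged from -0.45 to -0.36 with each library left out, and passed under limma voom with quality weights (-0.43, adjusted p = 0.0099). For Low Isoleucine it was -0.11 (SE 0.13). The difference between the restricted diets, Low Isoleucine over Low Amino Acid, was 0.29 (SE 0.12, adjusted p = 0.44). That comparison called 0 of 10 members, with 3 at an unadjusted p under 0.05 and 0 by DESeq2, beside 0.0159% of all genes called by edgeR. Over all 12617 genes, 1261 had an unadjusted p under 0.05 there and DESeq2 called 18. With only the compared groups fitted, 200 of 11845 genes were called between the restricted diets at 6 months. Against Control such fits called 25 of 11849 for Low Isoleucine and 5 of 11873 for Low Amino Acid.

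Nupr1 and Atf3 had the lowest fitted fold changes at 6 months, and the size of both rested on 1 control. Nupr1 was at 0.579, 0.907 and 1.36 CPM (lowest, median, highest) on Low Isoleucine, 0.813, 1.5 and 2.15 CPM on Low Amino Acid and 0.514, 0.805 and 138 CPM on Control diet, where the second highest control had 1.36 CPM. Its log2 fold changes of -4.15 (SE 0.93, adjusted p = 0.092) for Low Isoleucine and -3.60 (SE 0.85, adjusted p = 0.17) for Low Amino Acid turned to 0.31 and 0.86 without 6-month control replicate 2. Atf3 was 17.4 CPM in that library and 5.70 CPM in the next, and 7 of 8 Low Amino Acid livers lay below the control median. Its log2 fold change for Low Amino Acid was -1.45 (SE 0.43, adjusted p = 0.35) with the library and -0.58 (adjusted p = 0.64) without it, and for Low Isoleucine -1.15 with it and -0.28 without it. Ddit4 had a log2 fold change of 0.97 (SE 0.39, adjusted p = 0.53) on Low Amino Acid, and Sesn2 of 0.36 (SE 0.15, adjusted p = 0.40) on Low Isoleucine.

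The difference between the diet effects at the 2 ages was tested directly. For both diets 0 of 10 members passed, with 3 at an unadjusted p under 0.05 for Low Isoleucine and 4 for Low Amino Acid and 0 by DESeq2, beside 0% of all genes called by edgeR in each. Over all 12617 genes, 1072 had an unadjusted p under 0.05 for Low Isoleucine and 1298 for Low Amino Acid, and DESeq2 called 10 and 0. For Chac1 the diet effect at 24 months minus that at 6 months was -2.07 (SE 0.83, adjusted p = 0.46) for Low Isoleucine and -2.42 (SE 0.81, adjusted p = 0.48) for Low Amino Acid. The calls at 24 months are therefore not shown to be particular to that age.

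Age in Control livers gave the most calls among the members. At 24 against 6 months 4 of 10 rose, beside 16.7% of all genes, and 1 fell, beside 11.4%. Atf4, Asns, Chac1 and Atf5 rose and Trib3 fell. Without 24-month control replicates 1 and 5 the count was 3 (Asns and Atf5 higher, Trib3 lower), and it was also 3 without replicate 1 alone and without replicate 3 alone. It was 1 under limma voom (Trib3) and 2 in a fit of the controls alone (Chac1 and Trib3), where Asns did not pass the filter on low counts. Over all genes 2389 of 12640 were called without replicates 1 and 5, 2555 of 12617 under voom and 2140 of 11937 in the controls alone.

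**Figure D3:**
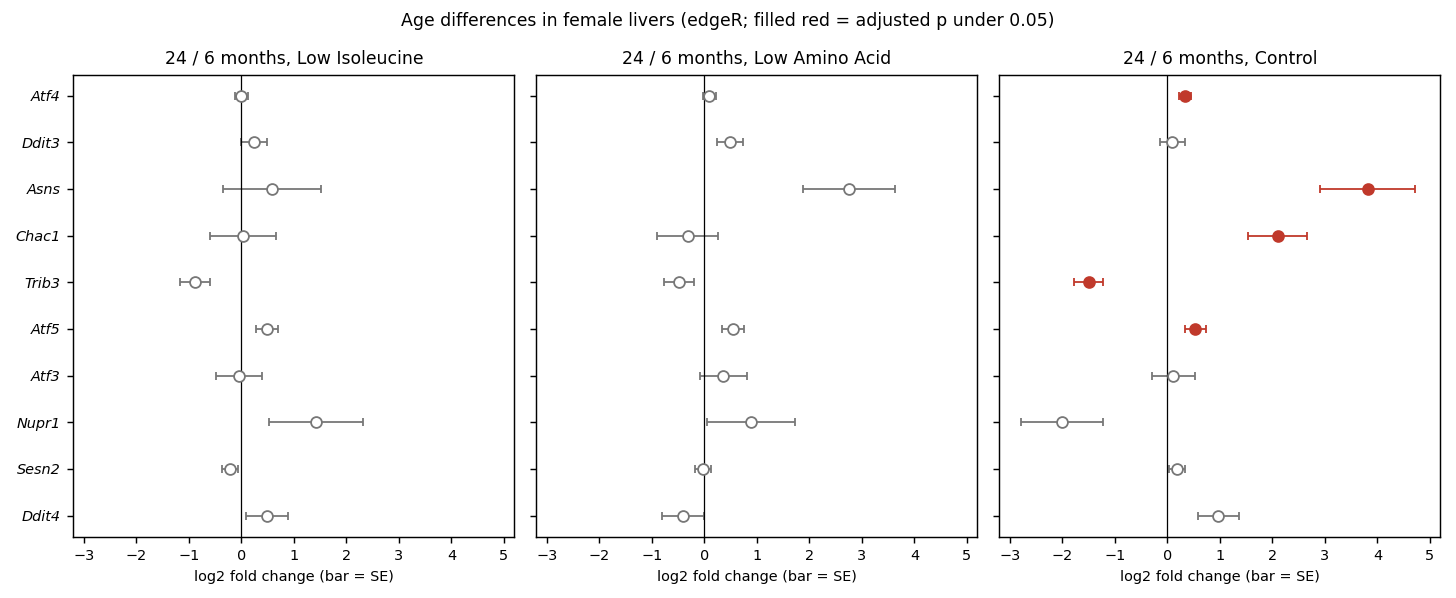
Fitted log2 fold change of each member at 24 over 6 months, with its SE as the bar, on each diet. Filled points passed an adjusted p of 0.05: 5 in Control livers and 0 on either restricted diet. The Nupr1 point in Control livers, at -2.0, turns to 2.46 without 1 library.

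Trib3 was lower in the older controls. It was at 2.40, 3.62 and 9.78 CPM in 24-month controls (lowest, median, highest), against 5.03, 10.7 and 33.2 CPM in 6-month controls. All 8 older livers lay below the younger median and 6 of 8 below the lowest younger liver. The log2 fold change was -1.50 (SE 0.28, adjusted p = 3.0e-04), and it passed with each of the 46 libraries left out (-1.78 to -1.10). On Low Isoleucine the age difference was -0.88 (SE 0.29, adjusted p = 0.051), with all 8 older livers below the younger median, and it passed under DESeq2 (adjusted p = 0.028) and limma voom (adjusted p = 0.028). On Low Amino Acid it was -0.48 (SE 0.29, adjusted p = 0.46).

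Chac1 had a log2 fold change with age of 2.10 (SE 0.57, adjusted p = 0.0057) in controls, and 4 of 8 older livers lay above the highest 6-month control at 3.16 CPM. It passed with every single library left out, and had 1.44 (adjusted p = 0.071) without replicates 1 and 5 together. Asns rose by 3.81 (SE 0.90, adjusted p = 0.0019), with 0.163, 0.663 and 27.6 CPM in older controls (lowest, median, highest) against 0.0367, 0.143 and 1.11 CPM in younger ones. All 8 older livers lay above the younger median, and without 24-month replicate 3 the value was 1.69 (adjusted p = 0.085). Atf4 rose by 0.34 (SE 0.12, adjusted p = 0.033), which lost its call with 6 of the 46 libraries left out in turn and became 0.11 (adjusted p = 0.48) without replicates 1 and 5 together. Atf5, a mitochondrial stress factor, rose by 0.54 (SE 0.20, adjusted p = 0.040), lost its call with 9 of the 46 left out, and became 0.35 (adjusted p = 0.17) without replicate 3. Its age difference had nearly the same size on Low Isoleucine, 0.49 (SE 0.21, adjusted p = 0.13), and Low Amino Acid, 0.54 (SE 0.21, adjusted p = 0.20), where 4 of 8 and 4 of 7 older livers lay above every younger one.

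Nupr1 changed sign with 1 library. All 8 older controls, at 1.48 to 10.1 CPM, lay above the other 7 younger controls, at 0.514 to 1.36 CPM, and the fit that includes the younger liver at 138 CPM gave -2.0 (SE 0.78, adjusted p = 0.0501). Without it the log2 fold change was 2.46 (adjusted p = 1.9e-04), and DESeq2, which replaces outlying counts in groups of 7 or more, gave 2.28. On Low Isoleucine 7 of 8 older livers lay above every younger liver, with a log2 fold change of 1.42 (SE 0.89, adjusted p = 0.32). Ddit4 was at 0.97 (SE 0.39, adjusted p = 0.057) in controls, and Sesn2 at 0.18 (SE 0.15, adjusted p = 0.37). Atf3 and Ddit3 had 0.11 (SE 0.41, adjusted p = 0.86) and 0.09 (SE 0.24, adjusted p = 0.81), and these values too rested on 6-month control replicate 2. Without it Atf3 was higher at 24 months by 0.98 (adjusted p = 0.029), which passed, and Ddit3 by 0.48 (adjusted p = 0.066). All 8 older controls lay above the younger median for Atf3 and 6 of 8 for Ddit3. Without 24-month control replicate 3 or 5 the Atf3 value was -0.05 or -0.07, and without replicate 1 that of Ddit3 was -0.06.

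On Low Isoleucine 0 of 10 members passed for age by edgeR, beside 7.34% of all genes called. An unadjusted p under 0.05 was reached by 2 members, beside 3174 of 12617 genes, and DESeq2 called 2, beside 1371. On Low Amino Acid 0 of 10 passed by edgeR, beside 1.61% of all genes called. An unadjusted p under 0.05 was reached by 2 members, beside 1741 of 12617 genes, and DESeq2 called 1, beside 332. In controls, where 16.7% of all genes rose and 11.4% fell, 6 of the 12 transfer RNA genes rose, all of them synthetases (among them Cars 0.89, Wars 0.71 and Tars 0.61), and the exporter Xpot fell (-0.27). In the same comparison 4 of 8 transporters rose (Slc7a11 2.23, Slc1a4 1.69, Slc7a1 1.41, Slc1a5 1.38) and 3 of 7 serine and one-carbon enzymes rose (Phgdh 3.64, Mthfd2 2.35, Aldh1l2 2.20). Of 10 eIF2 kinases and regulators 2 rose, Eif2ak3 (0.76) and Eif2ak2 (0.32), and 2 fell. Of the 18 further targets 3 rose and 2 fell, Vldlr (-1.69) and Cth (-0.75), shares near those over all genes, and 6 of 10 genes of the XBP1 and ATF6 arm rose. There all 10 neutrophil genes, 9 of 11 macrophage, 6 of 7 lymphocyte, 4 of 5 cycling and all 10 acute-phase genes rose, with medians of 5.45, 1.17, 3.0, 2.17 and 1.91. The part of those cells in the members' values was not tested.

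Single animals departed from their groups in sets of members. Each library was set against the median of its own group in log2 CPM. A deviation above 1 was reached by 5 of 10 members in 24-month control replicate 3, where 1.67% of all genes reached it, and by 5 in 6-month control replicate 2, where 0.808% did. These libraries were picked from the same values, as those with the most members above 1. The members were Asns, Chac1, Nupr1, Trib3 and Atf3 in the older animal, and Nupr1, Atf3, Ddit3, Trib3 and Asns in the younger one. Ddit3 was 7.75 CPM in the older one, below its group's median, and 25.8 CPM in the younger one, where the next of its group had 9.40 CPM. Sesn2 was 22.0 CPM and Atf5 272 CPM in the older one, both the highest of their groups, while the younger one had 14.4 and 94.8 CPM. Of the serine and one-carbon enzymes, Psat1 stood 3.58 above the median in the older animal and 3.54 in the younger one, and Phgdh (3.02), Aldh1l2 (1.61) and Mthfd2 (1.37) were high in the older one. Fgf21, a hormone that ATF4 induces in liver, stood 3.08 above the median in the older one, and Gdf15, a stress hormone, 2.12 in the younger one. In neither animal was a gene of the XBP1 and ATF6 arm above 1 (0 of 10 in each). The median deviation of that list was -0.75 in the older animal, with Creld2 at -1.07, and -0.19 in the younger one.

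**Figure D4:**
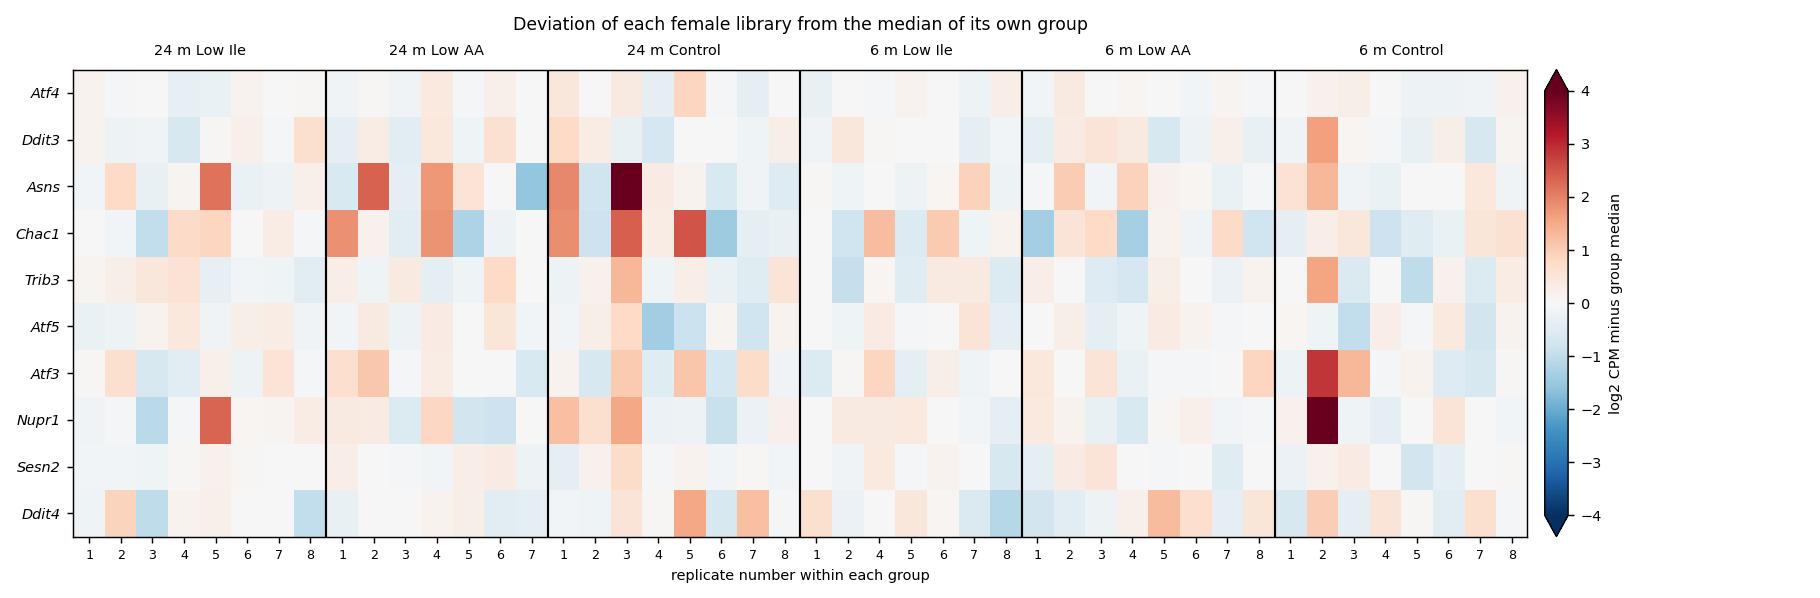
Deviation of each female library from the median of its own group, in log2 CPM, for every member, with colours capped at 4. In 24-month control replicate 3 and 6-month control replicate 2, 5 members each stand more than 1 above the median.

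24-month control replicates 1 and 5 were alike in some lists and unlike in others. They held the highest Atf4 levels of their group and had 14.1 and 22.4 CPM of Chac1, and 3 members each deviated by more than 1, where 4.48% and 3.89% of all genes did. In both, genes of the XBP1 and ATF6 arm were above 1, 7 and 4 of 10, with Sdf2l1 at 2.39 and 1.64, and so were 8 and 10 of 10 acute-phase genes. Replicate 1 had all 10 neutrophil and 8 of 11 macrophage genes above 1, and 2 of 7 glucocorticoid and fasting genes below -1. Replicate 5 ran the other way in these lists, with 4 of 10 neutrophil genes below -1 and 1 above 1, 9 of 11 macrophage genes below -1 and 4 of 7 glucocorticoid and fasting genes above 1. It also held the highest Ddit4 of its group, 5.61 CPM. Over the 46 libraries, after removal of group means, the Spearman correlation was 0.53 between Atf4 and Ddit3, 0.48 between Trib3 and Atf5 and 0.45 between Chac1 and Atf3. It was 0.15 between Atf4 and Asns and -0.003 between Atf4 and Trib3. Among 12607 other genes the most alike were Zfp7 (0.69) and Ets2 (0.66) for Atf4, Psat1 (0.72) for Asns, Fndc3b (0.74) for Chac1, Lysmd1 (0.58) for Trib3, and Cfap43 (0.72) and Tsc22d3 (0.65) for Ddit4. These points share libraries and scaling, and the values are descriptions.

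Males could be read only from the authors' deposited table, with no spread of their own here. In the authors' deposited male table no member passed as higher on either diet at 6 months, 0 of 10 beside 5.34% of all genes for Low Amino Acid, and 0 beside 9.35% for Low Isoleucine. There, by the authors' deposited table, Atf4 (-0.31, adjusted p = 0.039) and Atf5 (-0.69, adjusted p = 0.023) were lower on Low Amino Acid at 6 months, 2 of 10 beside 11.0% of all genes, and Sesn2 (-0.60, adjusted p = 0.040) on Low Isoleucine, 1 of 10 beside 11.7%. In the authors' deposited male table at 24 months, 0 of 10 passed on Low Isoleucine, with 2 at an unadjusted p under 0.05, Trib3 (0.95, adjusted p = 0.19) and Atf5 (0.52, adjusted p = 0.29), beside 0.0394% of genes called higher and 0.0282% lower. On Low Amino Acid the authors' deposited male table called 0 as well, with 1 at an unadjusted p under 0.05, Asns (1.51, adjusted p = 0.37), beside 0.0394% higher and 0.0169% lower.

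For age among controls the authors' deposited male table gave Trib3 lower at 24 than at 6 months (-0.97, adjusted p = 0.019), Sesn2 lower (-0.68, adjusted p = 0.0047) and Nupr1 higher (1.24, adjusted p = 0.014), 2 lower beside 11.7% and 1 higher beside 8.33%. The authors' deposited female table had Trib3 at -1.43 (adjusted p = 7.3e-04) and Asns at 2.34 (adjusted p = 0.044) for age, 1 lower beside 11.1% and 1 higher beside 12.4%. By that deposited table Atf4 (adjusted p = 0.063), Chac1 (adjusted p = 0.072) and Atf5 (adjusted p = 0.11), called for age in the fit here, were not called. For Nupr1 the authors' deposited female table had 1.28 for age (adjusted p = 0.11), opposite in sign to the -2.0 of the fit here. At 6 months it had Nupr1 at -0.69 on Low Isoleucine and -0.14 on Low Amino Acid, against -4.15 and -3.60 here. For diet at 24 months the authors' deposited female table called Atf4 on Low Amino Acid (-0.68, adjusted p = 0.0064), 1 lower beside 2.66%, and Chac1 (-2.33, adjusted p = 0.034) and Atf3 (-1.39, adjusted p = 0.038) on Low Isoleucine, 2 lower beside 5.21%. The authors' deposited female table did not call Atf4 (-0.38, adjusted p = 0.052) or Asns (-1.92, adjusted p = 0.16) on Low Isoleucine, unlike the fit here. In the authors' deposited male table the values for Chac1 and Atf3 on Low Isoleucine at 24 months were -0.35 and -0.20, neither called. The difference between the sexes was not tested.

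**Figure D5:**
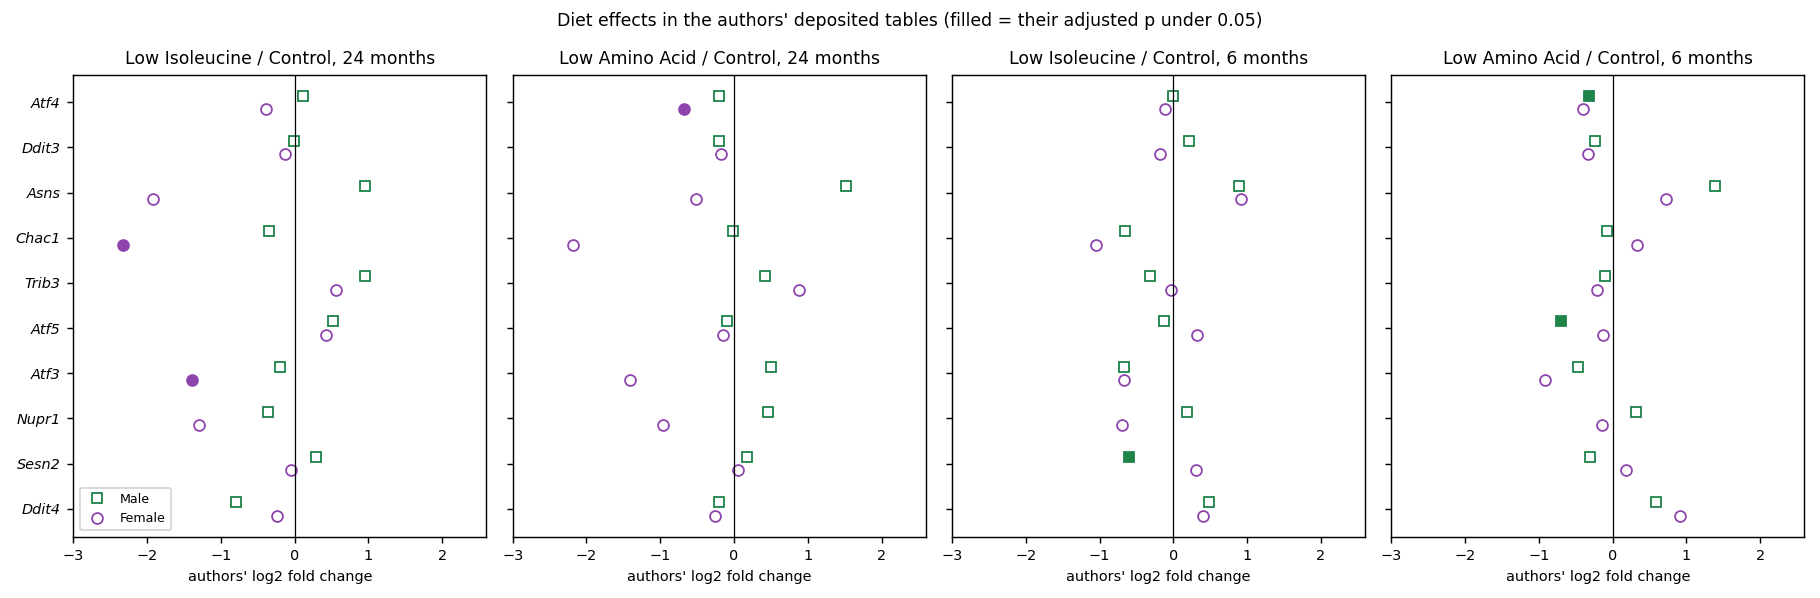
Log2 fold change of each member for each restricted diet over Control in the authors' deposited tables, males as squares and females as circles, filled where their adjusted p was under 0.05. Filled points all lie below 0, and the female values of Chac1 and Asns at 24 months lie lower than the male ones.

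Ddit3 has a second GENCODE gene of the same symbol at its position and overlaps Gm4189 and Mars, so its reads may have been split. Atf5 overlaps Nup62 and Il4i1, Sesn2 overlaps Gm12981 and Atf3 overlaps Gm24748. The libraries were stranded, and the sources used here do not say if counting used strand.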

How the data were processed

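Livers were sequenced as stranded, polyadenylated libraries, per the labels' protocols. The authors deposited estimated counts per gene, not normalized, and tables of log2 fold changes, p-values and F scores for each sex. Per the submitters' processing notes edgeR, limma, R 3.4.3 and GRCm38.p5 were used; aligner and annotation: not given in the sources used here. Of 51912 lines of the gene table, 17275 are filled in all columns. There female fold changes correlated with the deposited ones at 0.907 to 0.974 over genes, and male ones at -0.01 to 0.01, so the 45 male columns were not used. In the authors' deposited tables the fold direction, older over younger and restricted over Control, was checked against female counts only, and the male libraries that entered are unknown.

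Female counts were rounded, filtered with filterByExpr, scaled by TMM and fitted with edgeR 4.0.16 (quasi-likelihood, R 4.3.3) as a mean per group over 46 libraries. Replicate 3 of the 6-month Low Isoleucine group was left out for its Kdm5d level. P-values were adjusted over 12617 genes, and the threshold was 0.05. SE was recovered from the fold change and F. CPM are counts scaled to a TMM-adjusted library total of 1000000. Depth was 7.82 to 27.6 M counts. Counts were simulated for Low Isoleucine against Control at 24 months. On them the fit recovered 38.8% of genes with a log2 change of 0.5, 77.6% at 1 and 93.9% at 2. It made 7 false calls among 12554 genes. These rates describe the simulated counts only, and the rates in the real libraries were not tested. Alternatives were RLE scaling, no filter, DESeq2 1.42.0, limma 3.58.1 voom, fits of the compared groups, and left-out libraries. All members are named, and of other lists at most 6 called genes per comparison. The members and lists were chosen with earlier results of these data known. Replicates are numbered in accession order.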

Additional observations from a re-analysis of the deposited data

Results flagged for a closer look

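Of 60 groups of values (10 members in 6 groups), 13 had a library far from the others of its group. The gap to the next library was more than the 95% limit for the group's range, and all 13 were the highest of their group. A rate of 1 in 20 by chance holds for independent, normally distributed values. These were unlogged CPM and several flags share a library, so the 13 cannot be set against that rate. In 6-month control replicate 2, Nupr1 was 138 CPM (next 1.36), Trib3 33.2 CPM (next 13.2), Ddit3 25.8 CPM (next 9.40), Atf3 17.4 CPM (next 5.70) and Asns 1.11 CPM (next 0.458). In 24-month control replicate 3, Asns was 27.6 CPM (next 3.91), Sesn2 22.0 CPM (next 14.7) and Trib3 9.78 CPM (next 5.34). In 24-month Low Isoleucine replicate 5, the library with the fewest counts, Nupr1 was 11.3 CPM (next 2.36) and Asns 3.18 CPM (next 0.923). In 6-month Low Isoleucine, Ddit3 was 10.9 CPM in replicate 2 (next 8.17) and Asns 1.07 CPM in replicate 7 (next 0.373). In 6-month Low Amino Acid replicate 2, Atf4 was 67.9 CPM (next 57.7).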

How the results depend on the processing

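Counts of members past the threshold, with the 46 libraries left out in turn, ranged from 1 to 4 for Low Isoleucine against Control at 24 months, 1 to 2 for Low Amino Acid at 24 months, 0 to 1 for Low Isoleucine at 6 months, 3 to 7 for age in controls, 0 to 1 for age on Low Amino Acid and 0 to 2 for age on Low Isoleucine, and stayed at 0 in the other comparisons. Low Isoleucine at 24 months gave 0 under voom and 0 when only the compared groups were fitted. All genes called there were 565 of 12617 and 40 of 12103. Low Amino Acid at 24 months gave 2 under DESeq2, 0 in the compared groups alone, 3 without Low Amino Acid replicates 2 and 4 and Low Isoleucine replicates 2 and 5, 0 without control replicates 1 and 5, and 2 without 24-month control replicate 3 and 6-month control replicate 2. In the same order, all genes called were 301 of 12617, 4 of 12159, 1473 of 12643, 8 of 12640 and 146 of 12606, so these member counts moved with the calls over all genes. Low Amino Acid at 6 months gave 1 under voom, beside 52 of 12617 genes. Age in controls gave 1 under voom, 2 in the compared groups and 3 without replicates 1 and 5. All genes called there were 2555 of 12617, 2140 of 11937 and 2389 of 12640. Age on Low Amino Acid gave 1 under DESeq2, 2 in the compared groups and 1 without the 2 controls left out jointly. All genes called there were 332 of 12617, 330 of 12054 and 203 of 12606. Age on Low Isoleucine gave 2 under DESeq2, 1 under voom, 1 in the compared groups, 1 with 6-month Low Isoleucine replicate 3 kept in, 1 without control replicates 1 and 5, 1 without 1 and 4, and 2 without the joint controls. In the same order, all genes called were 1371 of 12617, 1079 of 12617, 374 of 11969, 1120 of 12623, 1294 of 12640, 1039 of 12626 and 937 of 12606.

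The reversals were in Nupr1 and, for age in controls, in Atf3 and Ddit3. Without 24-month control replicates 1 and 5 the age values of Atf3 and Ddit3 became -0.072 and -0.068, and with single libraries left out they ranged from -0.069 to 0.98 and from -0.059 to 0.48. For Nupr1, under DESeq2, under voom, without the joint controls and without 6-month control replicate 2, age in controls became 2.28, 1.46, 2.18 and 2.46, the age difference of the Low Isoleucine effect -0.79, -0.65, -0.73 and -1.005, and that of the Low Amino Acid effect -1.40, -0.94, -1.30 and -1.58. Under DESeq2, without the joint controls and without 6-month control replicate 2, Low Isoleucine at 6 months became 0.12, 0.31 and 0.31, and Low Amino Acid at 6 months 0.68, 0.86 and 0.86. With other single libraries left out these Nupr1 values reached -2.28 for age, 3.70 and 3.16 for the age differences of the Low Isoleucine and Low Amino Acid effects, and -4.34 and -3.78 for Low Isoleucine and Low Amino Acid at 6 months. The causes were not tested. Among single members under the other settings 325 values held, 28 passed in addition, 21 no longer passed and 15 reversed. The joint leave-out was chosen after seeing the data. Asns, with a median of 7 reads, is limited by depth. No paired analysis was possible because the labels give no replicate numbers shared between groups.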
